A study of Schizosaccharomyces pombe with 4 samples.

Results

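Core histone mRNA levels were read in fission yeast lacking sfp1, ifh1 or fhl1 and in wild type. The 10 genes were found by symbol in the authors' table and were 10 of its 5129 gene models: hta1 and hta2 for H2A, pht1 for the variant H2A.Z, htb1 for H2B, hht1, hht2 and hht3 for H3, and hhf1, hhf2 and hhf3 for H4. Total RNA came from untreated, exponentially growing Schizosaccharomyces pombe cultures of 4 genotypes, the sfp1 knockout, the ifh1 knockout, the fhl1 knockout and wild type, with 1 sample each. The labels name no other allele, and "without sfp1" below stands for the sfp1 knockout, and so on. Levels are the authors' FPKM, a measure of fragments scaled for gene length and sequencing depth, deposited with a lower and an upper bound. How length was corrected for is not given, and in these short genes FPKM and its bounds were on different scales. With 1 sample per genotype there was no replicate spread, so no test was made, and a 2-fold limit and the deposited bounds stand beside each difference.

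Histones are the small basic proteins that wrap DNA into nucleosomes. H3 and H4 form the inner tetramer, pairs of H2A and H2B complete it, and H2A.Z replaces H2A at many promoters. In fission yeast most histone genes are transcribed in S phase, when new chromatin is assembled. The GATA-type factor Ams2 and the Myb-type factor Teb1 are known regulators of histone genes, and the HIRA complex represses them outside S phase. Sfp1 is a zinc finger factor of ribosome production, Fhl1 a fork-head factor and Ifh1 a coactivator known as a partner of Fhl1 in budding yeast.

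The H2A, H2B, H3 and H4 genes carry a conserved box before their transcripts, and 8 of them lie in 4 head-to-head pairs, so the stretches between the annotated transcript starts (or, for hta2 and pht1, the 200 bases before the start) are shown with each AACCCT, on either strand, in capitals. Sequences are from RefSeq, build ASM294v3, read on the plus strand for the pairs and on the gene's own minus strand for hta2 and pht1. The pairs are hhf1 and hht1 at chrI:4699600-4699731, hhf2 and hht2 at chrII:1364985-1365118, hht3 and hhf3 at chrII:3529566-3529766, and hta1 and htb1 at chrIII:1412182-1412358. The single genes are hta2 at chrI:4053319-4053518 and pht1 at chrII:1503445-1503644.
hhf1/hht1: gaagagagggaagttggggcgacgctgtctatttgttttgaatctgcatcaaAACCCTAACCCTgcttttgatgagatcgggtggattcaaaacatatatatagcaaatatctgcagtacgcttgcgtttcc
hhf2/hht2: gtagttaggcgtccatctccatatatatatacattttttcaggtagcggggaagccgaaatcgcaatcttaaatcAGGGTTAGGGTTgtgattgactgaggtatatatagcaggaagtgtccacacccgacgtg
hht3/hhf3: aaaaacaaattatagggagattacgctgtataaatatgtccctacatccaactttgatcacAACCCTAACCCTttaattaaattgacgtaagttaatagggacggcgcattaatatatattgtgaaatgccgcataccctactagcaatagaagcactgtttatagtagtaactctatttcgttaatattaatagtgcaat
hta1/htb1: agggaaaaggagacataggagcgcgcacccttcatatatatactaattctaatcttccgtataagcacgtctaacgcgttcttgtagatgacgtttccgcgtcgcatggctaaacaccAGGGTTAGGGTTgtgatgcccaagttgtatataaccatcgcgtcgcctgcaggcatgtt
hta2: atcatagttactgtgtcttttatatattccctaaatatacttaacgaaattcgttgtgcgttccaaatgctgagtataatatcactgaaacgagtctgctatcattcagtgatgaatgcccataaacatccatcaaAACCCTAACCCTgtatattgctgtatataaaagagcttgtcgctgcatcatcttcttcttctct
pht1: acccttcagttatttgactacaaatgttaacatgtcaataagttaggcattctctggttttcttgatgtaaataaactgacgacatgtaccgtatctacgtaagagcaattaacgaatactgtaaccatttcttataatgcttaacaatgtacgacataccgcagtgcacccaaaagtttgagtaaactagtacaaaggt
AACCCT stood as a tandem, AACCCTAACCCT or its reverse complement, once in each of the 5 stretches of the H2A, H2B, H3 and H4 genes. It was not in that of pht1. The tandem was searched for after the hexamer hits were seen. It was present in the 200 bases before the transcript start of 19 of 5144 coding genes (0.369%), and 9 of those 19 were histone genes, the 9 without pht1. Head-to-head genes share their tandem, so these 9 genes stand for 5 tandems. The hexamer AACCCT alone was present in 6.84% of those windows.

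The other motifs searched on both strands differed from gene to gene. ACGCGT, the core of the box bound by the G1/S factor MBF, stood once between hta1 and htb1 and in none of the other stretches, against 2.04% of all promoters over 177 bases. TATAAA stood 2 times between hht3 and hhf3 and 2 times before hta2, against 37.1% of all promoters over 201 bases. GATAA was not in any of the 6 windows, against 31.9% to 46.2% of all promoters over the same lengths.

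The gene copies encode the same H3 and the same H4 but are not identical in sequence, which bears on how far reads could be given to one copy. The first 60 coding bases of each are shown with the positions that differ among the copies in capitals. They lie at chrI:4699829-4699888 (plus strand) for hht1, chrII:1365158-1365217 (plus) for hht2 and chrII:3529470-3529529 (minus) for hht3. For H4 they lie at chrI:4699337-4699396 (minus) for hhf1, chrII:1364764-1364823 (minus) for hhf2 and chrII:3529767-3529826 (plus) for hhf3.
hht1: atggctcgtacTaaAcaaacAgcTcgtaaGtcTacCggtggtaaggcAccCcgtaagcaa
hht2: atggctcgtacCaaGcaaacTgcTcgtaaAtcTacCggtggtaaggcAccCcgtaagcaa
hht3: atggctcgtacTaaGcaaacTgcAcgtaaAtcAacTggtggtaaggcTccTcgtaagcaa
hhf1: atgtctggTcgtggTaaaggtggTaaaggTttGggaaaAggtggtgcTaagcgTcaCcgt
hhf2: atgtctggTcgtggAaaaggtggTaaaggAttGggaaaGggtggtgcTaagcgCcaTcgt
hhf3: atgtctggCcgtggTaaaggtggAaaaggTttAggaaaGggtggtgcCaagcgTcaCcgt
Over the whole 411 coding bases, hht1 differed from hht2 at 46 positions and from hht3 at 30, and hht2 from hht3 at 48. Over 312 bases hhf1 differed from hhf2 at 27 positions and from hhf3 at 21, and hhf2 from hhf3 at 27. None of these differences (0 codons) altered the encoded residue. Of all stretches of 50 coding bases, 5 of 263 in hhf2 and in hhf3 were shared with another coding gene, and 0 in each of the other 8 genes. The H2A genes hta1 and hta2 were 86.5% identical. Read length and the treatment of reads that map to several places are unknown from the sources used here, so single copies remain uncertain.

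All 10 genes had 1 coding exon, and the table's boundaries were those of the annotated coding sequence in ASM294v3. Another annotated gene, a noncoding RNA on the opposite strand, lay over the coding stretch of 7 of the 10, the exceptions being hht2, hht3 and hhf1. The libraries were directional, but whether strand was used in counting is not given, so reads from the opposite strand cannot be told apart there.

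For these short genes the FPKM value and its bounds were on different scales. FPKM was 3.72 to 4.45 times the midpoint of its bounds in the 312 bp H4 genes and 2.02 to 2.74 times in the 7 genes of 381 to 420 bp, while the median over genes of 2000 bp or more was 1.00. Midpoints are therefore given beside FPKM. The half-width of the bounds was 32.0% to 41.1% of the midpoint over all members and genotypes. Each deleted gene was at 0.0509 to 0.556 FPKM in its own knockout, against 45.1 to 270.3 FPKM in the other genotypes.

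**Figure D1:**
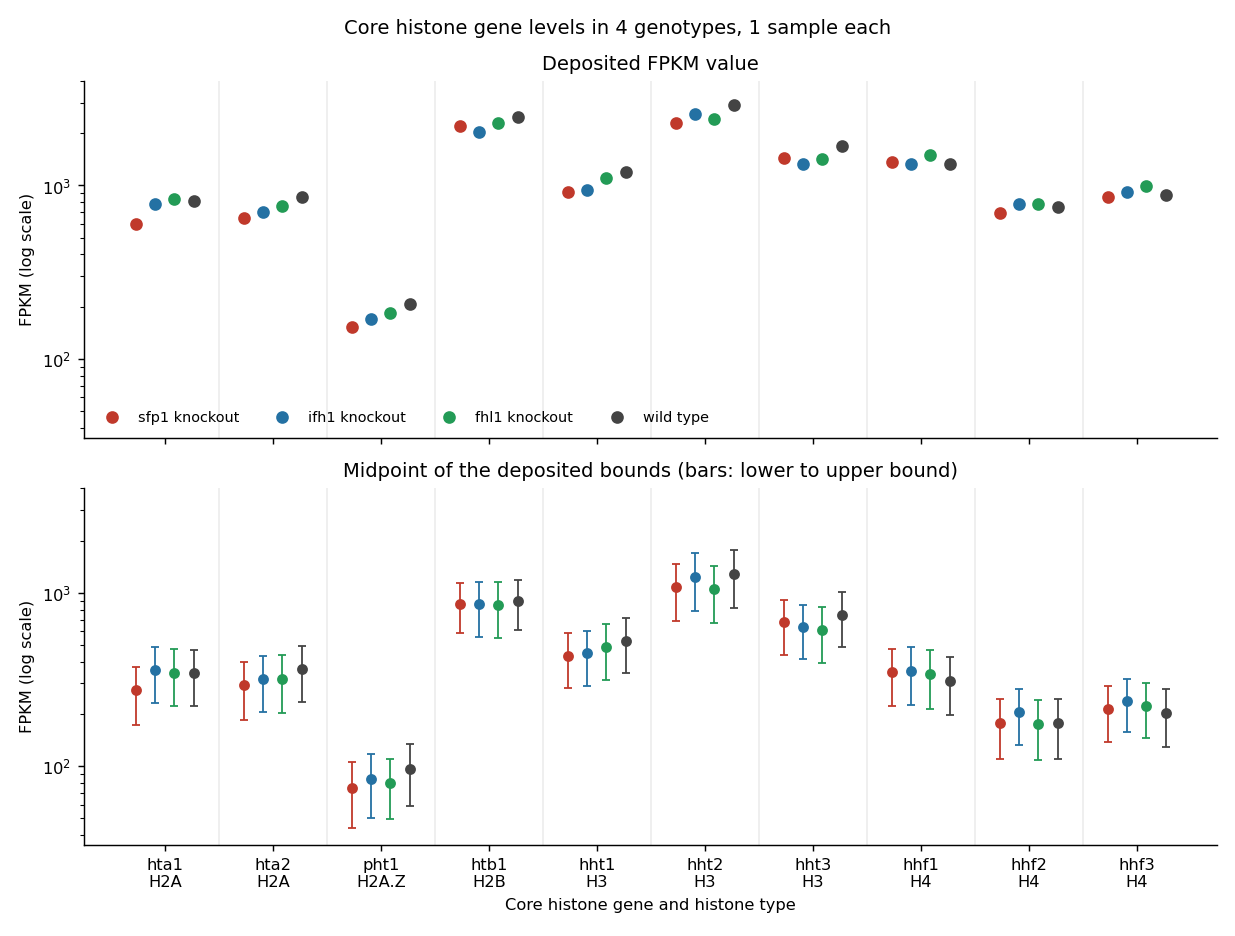
Level of each core histone gene (horizontal axis) in sfp1, ifh1 and fhl1 knockout cells and wild type, as deposited FPKM (upper panel) and as the midpoint of the deposited bounds with bars from lower to upper bound (lower panel), both on a log axis. The bars of the 4 genotypes overlap for every gene, and pht1 lies below the other 9 genes.

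Apart from pht1, the H2A genes were the members furthest below wild type in the sfp1 knockout. hta1 (SPCC622.08c, coding bases chrIII:1411524-1411922), head to head with the H2B gene, stood at 602 FPKM without sfp1, 779 without ifh1 and 834 without fhl1, against 818 in wild type. It was low in the sfp1 knockout alone, at a log2 ratio of −0.44, while the ratios were −0.07 without ifh1 and 0.03 without fhl1. Its midpoints were 274, 357 and 346 FPKM in the same knockouts, against 346 in wild type.

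hta2 (SPAC19G12.06c, chrI:4052852-4053247), the H2A gene with no histone gene beside it, had 651 FPKM without sfp1, 702 without ifh1 and 764 without fhl1, against 863 in wild type. All 3 knockouts were below wild type, with log2 ratios of −0.41, −0.30 and −0.18 in that order. The midpoints of 293, 319 and 319 FPKM, against 363 in wild type, had the same direction. Summed H2A turned positive with quantile normalization without ifh1 (0.027) and without fhl1 (0.018), and likewise with scaling outside the ribosomal protein genes (0.12 and 0.059). Set against the median of all genes under that last scaling, summed H2A was at −0.16 and −0.090. The copies contributed nearly equally: hta1 held 48.0, 52.6 and 52.2% of the summed H2A FPKM in sfp1, ifh1 and fhl1 knockout cells, against 48.7% in wild type.

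pht1 (SPBC11B10.10c, chrII:1502642-1503061) encodes H2A.Z, is the only member without the tandem box and had the lowest level of the 10. It stood at 152 FPKM without sfp1, 169.5 without ifh1 and 184 without fhl1, against 209 in wild type. Its log2 ratios of −0.45, −0.30 and −0.18 ran close to those of hta2. Midpoints were 74.9, 84.0 and 80.0 FPKM in those knockouts, against 96.1 in wild type.

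htb1 (SPCC622.09, chrIII:1412484-1412864), the single H2B gene, stood at 2206 FPKM without sfp1, 2045 without ifh1 and 2298 without fhl1, against 2468 in wild type. These are log2 ratios of −0.16, −0.27 and −0.10. By midpoints the difference was smaller, with 864, 857 and 852 FPKM in the knockouts against 901 in wild type (log2 −0.06, −0.07 and −0.08). The direction turned with the scaling: H2B was at 0.18, 0.44 and 0.33 with quantile normalization and at 0.043, 0.028 and 0.030 with scaling outside the ribosomal protein genes. Within the hta1 and htb1 pair, the ratio of hta1 to htb1 FPKM was 0.273 without sfp1, 0.381 without ifh1 and 0.363 without fhl1, against 0.331 in wild type, with no replicate spread for the ratio and overlapping bounds for both genes.

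The 3 H3 genes were below wild type in every knockout by unscaled FPKM and by midpoints. Summed H3 turned positive with quantile normalization without ifh1 (0.39) and without fhl1 (0.10). It also did so with scaling outside the ribosomal protein genes without ifh1 (0.05). Set against the median of all genes under that last scaling, summed H3 without ifh1 was at −0.23. hht1 (SPAC1834.04, chrI:4699829-4700239) had 919.6 FPKM without sfp1, 939 without ifh1 and 1111 without fhl1, against 1199 in wild type. Its log2 ratios were −0.38, −0.35 and −0.11. hht2 (SPBC8D2.04, chrII:1365158-1365568), the copy with the highest level, had 2283, 2584 and 2409 FPKM in those knockouts, against 2893 in wild type. The log2 ratios of hht2 were −0.34, −0.16 and −0.26, the ifh1 knockout being the nearest to wild type.

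hht3 (SPBC1105.11c, chrII:3529119-3529529) had 1441 FPKM without sfp1, 1334 without ifh1 and 1427 without fhl1, against 1699 in wild type. These are log2 ratios of −0.24, −0.35 and −0.25. By FPKM the sfp1 knockout was lowest for hht1 and hht2 and the ifh1 knockout for hht3, with overlapping bounds. By midpoints all 9 H3 ratios were again below 0, between −0.30 and −0.05. hht2 held 49.2, 53.2 and 48.7% of the summed H3 FPKM in sfp1, ifh1 and fhl1 knockout cells, against 49.95% in wild type, and the shares of hht1 (19.3% to 22.5%) and hht3 (27.5% to 31.0%) moved as little.

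The H4 genes stood near or above their wild-type values. hhf1 (SPAC1834.03c, chrI:4699085-4699396) had 1368 FPKM without sfp1, 1321 without ifh1 and 1489.6 without fhl1, against 1322 in wild type. Its log2 ratios were 0.05, −0.0014 and 0.17. hhf2 (SPBC8D2.03c, chrII:1364512-1364823) had 690.4, 785 and 779 FPKM in those knockouts, against 756 in wild type (log2 −0.13, 0.06 and 0.04).

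hhf3 (SPBC1105.12, chrII:3529767-3530078) had 853 FPKM without sfp1, 920.3 without ifh1 and 989 without fhl1, against 877 in wild type (log2 −0.04, 0.07 and 0.17). By midpoints hhf1 stood at 349.7, 355 and 341 FPKM in the knockouts against 312 in wild type, and hhf3 at 214, 237 and 223 against 204. The midpoints of hhf2 were 177, 206 and 175 FPKM, against 177 in wild type. Of the 9 H4 ratios, 6 were above 0 by FPKM and 7 by midpoints, and none passed 0.22. hhf1 held 47.0, 43.6 and 45.7% of the summed H4 FPKM in sfp1, ifh1 and fhl1 knockout cells, against 44.8% in wild type.

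The bounds overlapped those of wild type in all 30 combinations of gene and knockout, 0 lying apart. With half-widths of 32.0% to 41.1% of the midpoint, bounds overlap at ratios as small as these. They also overlapped for every gene of the lists below, and the share over all genes was not computed. The overlap is therefore not particular to the histone genes. Ordered by midpoints, hht2 was highest and htb1 next in every genotype, and pht1 was lowest. Of 36 pairs of neighbours in that order, 2 had bounds apart, hhf2 and pht1 in the sfp1 and in the ifh1 knockout, so the order of the other neighbours was within the bounds. By FPKM the H4 gene hhf1 stood above the H3 gene hht1 in every genotype, and by midpoints below it, so the order of H3 and H4 copies depended on the scale.

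**Figure D2:**
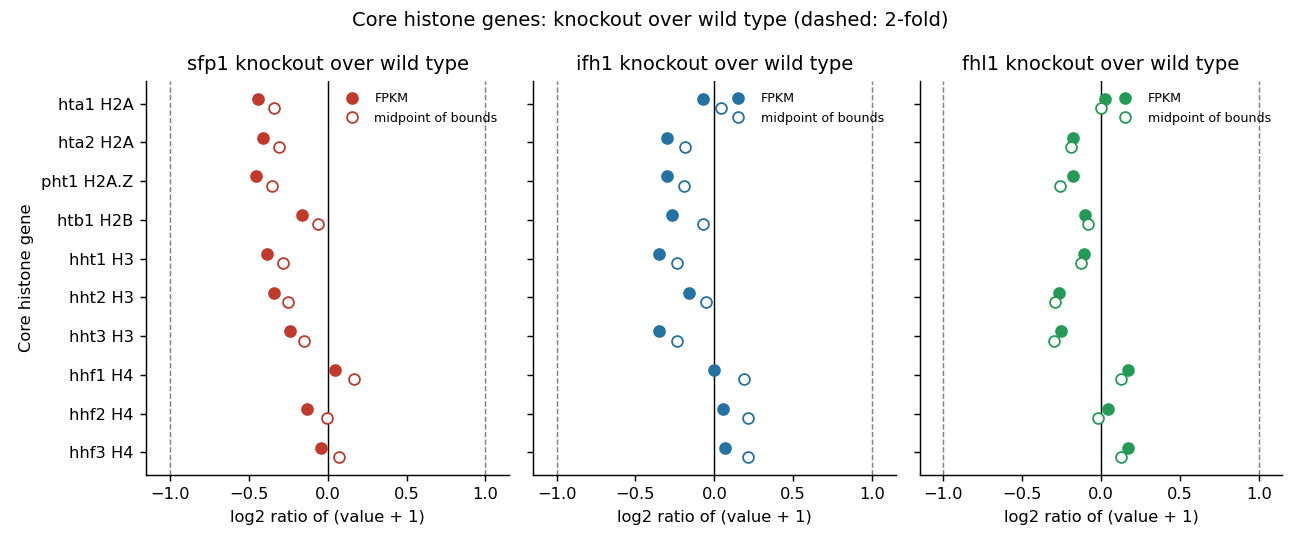
Log2 ratio of (value + 1), knockout over wild type, for each core histone gene by FPKM (filled) and by midpoints of the bounds (open), with the 2-fold limit dashed. Every point lies between −0.45 and 0.22, with H3 genes left of 0 in all panels on these unscaled values. Summed H3 turned positive in the ifh1 and fhl1 knockouts with quantile normalization. With scaling outside the ribosomal protein genes it turned positive in the ifh1 knockout, but lay below the median of all genes there.

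Summed over its copies, H3 was at 4644 FPKM without sfp1, 4857 without ifh1 and 4947 without fhl1, against 5791 in wild type. H4 was at 2911, 3027 and 3257 FPKM in those knockouts, against 2955 in wild type. H3 thus stood at 80.2, 83.9 and 85.4% of its wild-type sum and H4 at 98.5, 102.4 and 110.2%. H2A stood at 74.5, 88.1 and 95.03% of its wild-type sum, 1252, 1481 and 1597 FPKM against 1681. By midpoints, H3 stood at 85.3, 90.5 and 83.6% and H4 at 106.9, 115.2 and 106.6% of wild type.

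The ratio of summed H3 to summed H4 FPKM was 1.595 without sfp1, 1.605 without ifh1 and 1.52 without fhl1, against 1.96 in wild type. By midpoints the ratio was 2.95, 2.91 and 2.90, against 3.70 in wild type. Within each of the 3 head-to-head pairs of an H3 and an H4 gene, the ratio was below wild type in every knockout, 9 of 9 by FPKM and 9 of 9 by midpoints. For hht2 over hhf2 it was 3.31, 3.29 and 3.09 by FPKM in sfp1, ifh1 and fhl1 knockout cells, against 3.83 in wild type. With quantile normalization this pair ratio turned above wild type in the ifh1 and fhl1 knockouts. There the log2 ratios of hht2 were 0.63 and 0.21, and those of hhf2 were 0.30 and 0.14. The remaining pair ratios stayed below wild type with that scaling. All these ratios share the 1 wild-type sample, so they are not 3 separate observations.

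**Figure D3:**
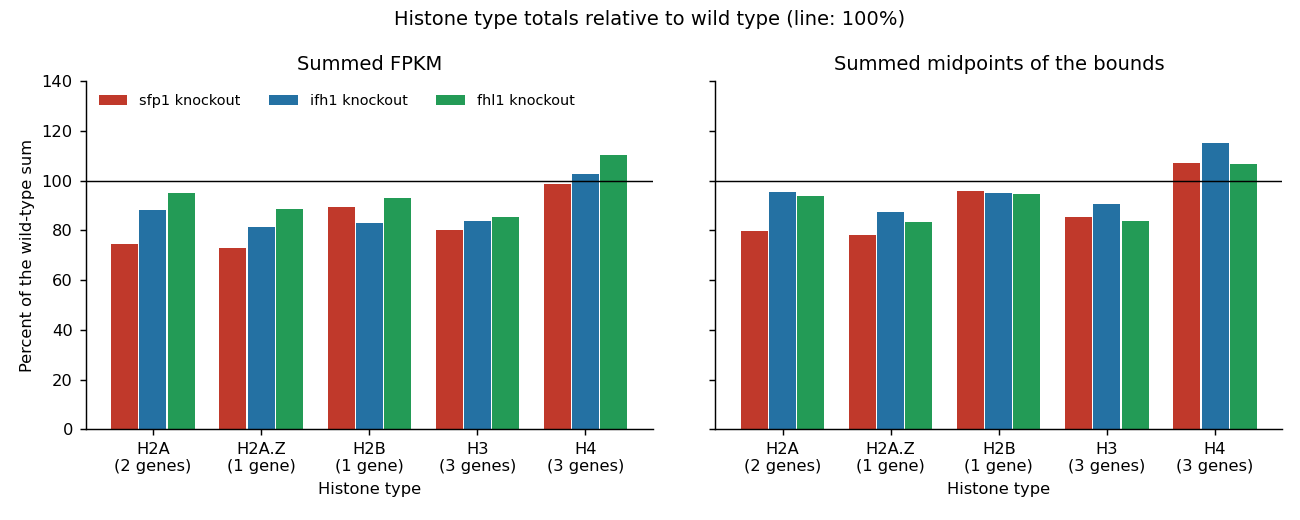
Summed level of each histone type in sfp1, ifh1 and fhl1 knockout cells as a percentage of the wild-type sum (line at 100%), by FPKM (left) and by midpoints of the bounds (right). H3 bars lie at 80.2 to 85.4% by FPKM, and H4 bars at 98.5 to 110.2%.

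H3 and H4 genes differ in length, so other genes of like length were read beside them. Among 31 other genes of 300 to 330 bp outside the ribosomal protein genes, with midpoints above 20 FPKM, the median log2 midpoint ratio was 0.12 without sfp1, 0.16 without ifh1 and 0.003 without fhl1. The summed H4 midpoints had 0.10, 0.20 and 0.09. Among 47 such genes of 380 to 420 bp the medians were 0.00, 0.05 and −0.06, and summed H3 had −0.23, −0.14 and −0.26. By FPKM the medians were 0.083 without sfp1, −0.021 without ifh1 and 0.13 without fhl1 in the shorter genes, and −0.056, −0.0085 and 0.0012 in the longer ones. The shorter genes thus had the higher median in every knockout by midpoints. By FPKM they had it without sfp1 and without fhl1, but not without ifh1. The part of gene length in the H3 to H4 ratio was not tested. Quantile normalization forces 1 distribution on all genotypes. It gave log2 ratios of summed H3 over summed H4 of −0.17, −0.01 and −0.16 relative to wild type, where unscaled FPKM gave −0.30, −0.29 and −0.37.

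As a group the 10 genes stayed within 2-fold of wild type in every knockout. In the sfp1 knockout 0 were at least 2-fold lower and 0 at least 2-fold higher, where 2.5% and 3.11% of the 4761 genes averaging 1 FPKM or more were. In the ifh1 knockout the counts were again 0 and 0, against 2.84% and 1.6% of all genes, and in the fhl1 knockout 0 and 0, against 0.903% and 2.58%. Among the 415 genes of 300 to 450 bp, 4.58% were at least 2-fold lower and 7.71% higher without sfp1, 6.99% and 4.58% without ifh1, and 2.89% and 7.71% without fhl1. A count of 0 in 10 is near all of these shares. All 10 genes passed the minimum of 1 FPKM.

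The median log2 ratio of the members was −0.29 without sfp1, −0.22 without ifh1 and −0.11 without fhl1, where all genes had −0.01, −0.01 and 0.02. Below wild type by any amount were 9 of 10 members in the sfp1 knockout (51.4% of all genes), 8 of 10 in the ifh1 knockout (52.1%) and 6 of 10 in the fhl1 knockout (47%). Of the genes of 300 to 450 bp, 54.7%, 53.5% and 48.7% were below wild type. By midpoints 8, 6 and 8 of 10 members were below, where 48.6%, 48% and 48.3% of all genes were. The lowest member ratio in the sfp1 knockout, pht1 at −0.45, lay within the central 90% of all genes, which ran from −0.78 to 0.76. By midpoints the member medians were −0.20, −0.06 and −0.10. As RNA came from whole cultures, fewer cells in S phase and less histone RNA per cell cannot be told apart.

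**Figure D4:**
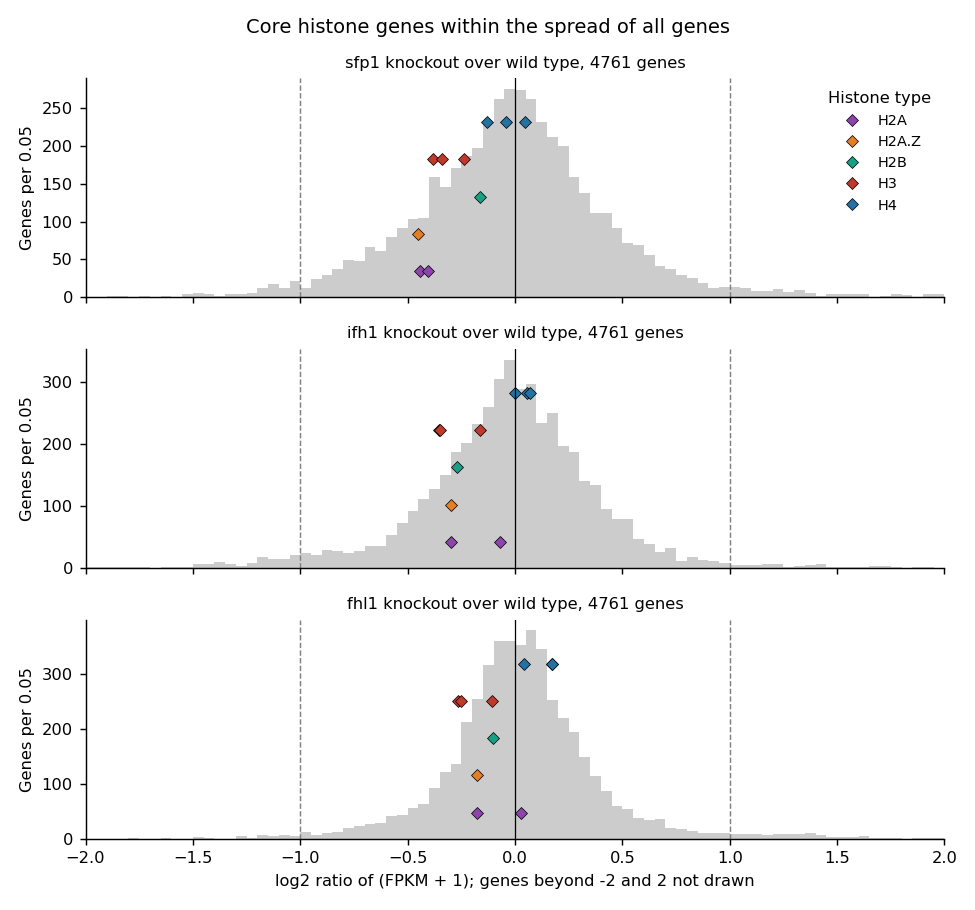
Histogram of the log2 ratio of (FPKM + 1), knockout over wild type, for 4761 genes (vertical axis: genes per bin of 0.05), with the core histone genes as diamonds by type, whose height separates the types and has no scale. The diamonds lie inside the bulk of all genes in each panel, H4 (blue) to the right of H3 (red).

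The direction depended on scaling. The summed FPKM was unequal, 2.77e+06 without sfp1, 2.77e+06 without ifh1 and 2.81e+06 without fhl1, against 3.26e+06 in wild type. Ribosomal protein genes held a similar share of it in each genotype, 68.1, 70.1 and 67.0% in those knockouts, against 68.8% in wild type. Scaling to the sum outside these genes moved the median over all genes to 0.19 without sfp1, 0.28 without ifh1 and 0.15 without fhl1. The median of the 10 histone genes was then −0.08, 0.08 and 0.03, above 0 in the ifh1 and fhl1 knockouts. Set against the shifted centre of all genes it was −0.27, −0.20 and −0.12. Quantile normalization, with medians of all genes near 0, put the members at 0.02, 0.25 and 0.12, all above 0. The core histone genes held 0.403, 0.419 and 0.437% of all FPKM in sfp1, ifh1 and fhl1 knockout cells, against 0.402% in wild type. By midpoints their shares were 0.489, 0.575 and 0.493%, against 0.441% in wild type.

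Genes that act on histones were read from lists of named genes, 88 in all, of which 84 passed the minimum of 1 FPKM. None of these (0 of 84) was at least 2-fold lower or higher in any knockout, where 2.5% and 3.11% of all genes were without sfp1, 2.84% and 1.6% without ifh1, and 0.903% and 2.58% without fhl1. The 9 regulators of histone genes had medians of −0.05, −0.11 and −0.08 in sfp1, ifh1 and fhl1 knockout cells. ams2 stood at 67.5, 63.2 and 65.6 FPKM in those knockouts, against 66.5 in wild type, and teb1 at 51.8, 45.9 and 51.3 FPKM, against 51.8. Furthest from 0 were hip4, a HIRA subunit, in the sfp1 knockout (31.3 FPKM against 46.7 in wild type, −0.56) and yox1, a homeodomain partner of MBF, in the ifh1 knockout (−0.40) and the fhl1 knockout (−0.42).

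The 17 histone chaperones had medians of −0.10, 0.04 and −0.06 in sfp1, ifh1 and fhl1 knockout cells. cia1, the gene of the H3-H4 chaperone Asf1, was at 59.7, 60.4 and 55.5 FPKM in those knockouts, against 80.5 in wild type, and was the chaperone gene furthest from 0 in the fhl1 knockout (−0.53). In the sfp1 and ifh1 knockouts that was scm3, the chaperone of the centromeric H3 (0.68 and 0.70). The centromeric H3 gene itself, cnp1, stood at 28.0, 42.7 and 40.0 FPKM, against 36.8 in wild type (−0.38, 0.21 and 0.11).

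The 13 genes of the SWR1 complex and its partners, which put H2A.Z into chromatin, had medians of −0.01, 0.04 and −0.10, while pht1 itself was at −0.45, −0.30 and −0.18. Furthest from 0 were swc2, the H2A.Z-binding subunit, in the sfp1 knockout (−0.48) and the fhl1 knockout (−0.35), and the helicase gene rvb1 in the ifh1 knockout (−0.29). Of the 10 genes of histone methyl- and acetyltransferases 8 passed the minimum, with medians of 0.03, 0.07 and 0.03. The acetyltransferase gene elp3 was furthest in the sfp1 knockout (−0.56) and the fhl1 knockout (−0.35), and mst2 in the ifh1 knockout (0.21). Deacetylases and demethylases (10 genes) had medians of 0.13, 0.02 and 0.05, with the sirtuin gene hst2 furthest in the sfp1 knockout (−0.58) and jmj2 in the ifh1 and fhl1 knockouts (0.67 and 0.43).

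Cell cycle genes were read beside the histone genes, since most histone genes are transcribed in S phase. The 11 measured G1/S genes had medians of 0.01, 0.06 and 0.09 in sfp1, ifh1 and fhl1 knockout cells, with 5, 4 and 3 of them below wild type. The replication licensing gene cdt1 was at 40.2, 26.8 and 36.9 FPKM in those knockouts, against 23.2 in wild type, and was furthest from 0 in the sfp1 knockout (0.77) and the fhl1 knockout (0.65). In the ifh1 knockout this was cdc18, another licensing gene (0.51). The 15 measured genes of mitosis and cell separation had medians of 0.12, −0.09 and 0.12, with 5, 11 and 4 of them below wild type. Furthest from 0 was the polo kinase gene plo1, at 59.3, 58.7 and 58.0 FPKM against 35.1 in wild type (0.74, 0.72 and 0.71). The S phase share of the cultures was not measured, and its part in the histone values was not tested.

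**Figure D5:**
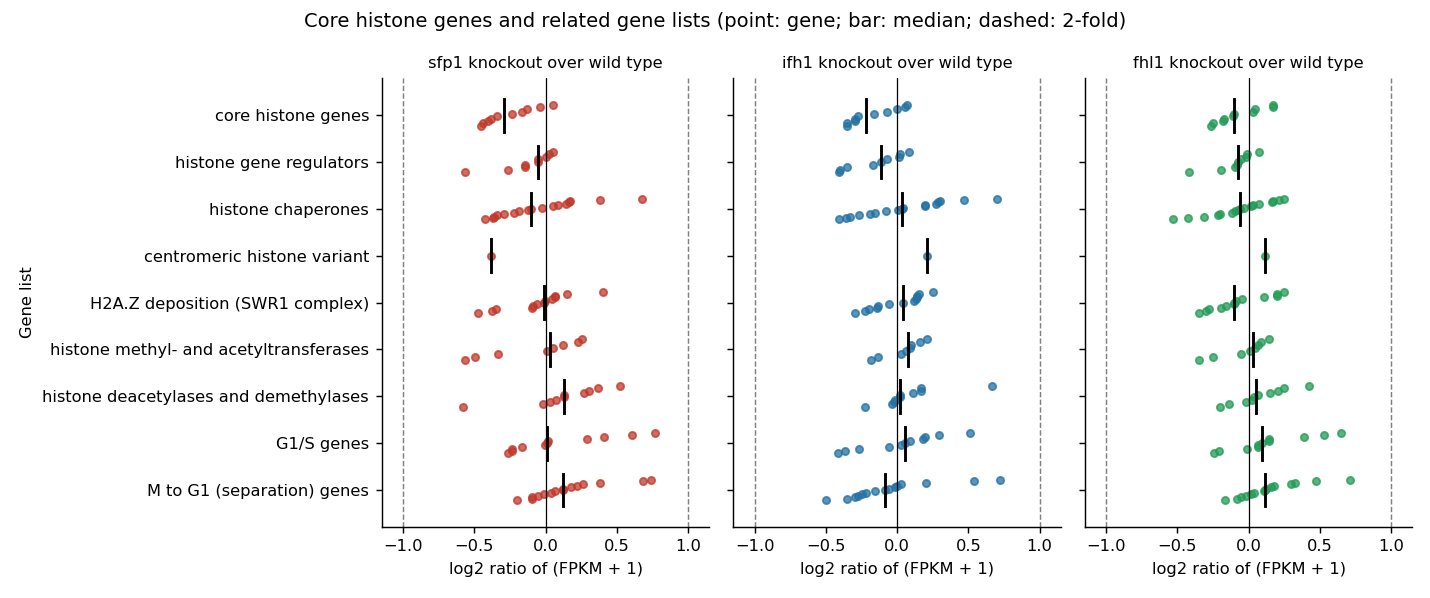
Log2 ratio of (FPKM + 1), knockout over wild type, for the core histone genes (top row) and each related gene list, with 1 point per gene, a bar at the median and the 2-fold limit dashed. No point passes the 2-fold limit, and the core histone medians lie at −0.29, −0.22 and −0.11.

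The profile of the summed histone FPKM over the 4 genotypes (the 9 genes without pht1) was shared by many genes. The 5 genes nearest to it, by Euclidean distance between log2 profiles centred on their mean, were rav2, a V-ATPase assembly factor gene, anp1, a Golgi mannosyltransferase gene, cph1, cdk9, a transcription kinase gene, and wis4, a MAP kinase kinase kinase gene. Their distances were 0.0117 to 0.0293, against 0.114 for htb1, the nearest member. rav2 had 55.6 FPKM without sfp1, 57.0 without ifh1 and 60.8 without fhl1, against 64.6 in wild type. Of 4493 other genes, 1518 (33.8%) lay nearer to the histone profile than hta1, the farthest member.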

How the data were processed

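Per the file headers, the deposited values are FPKM, each with its own pair of bounds, in 1 table of genes by genotype. TopHat2 2.0.9 and Cufflinks 2.1.1 are named in the submitters' processing notes, and no source used here gives their roles, the genome build or the gene models. The file name mentions 2 replicates, but there was 1 value per genotype, so the planned branch without a test was used. The ifh1 knockout was read from the columns headed crf1d, since the reference lists crf1 as a synonym of ifh1.

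Here log2(FPKM + 1) ratios to wild type were computed without further scaling (Python 3.11.15, pandas 2.3.3), for genes averaging 1 FPKM or more. This scale understates the change of low genes. True depth is unknown. Of bounds under 500 fragments, 99.46% lay within 0.05 of whole multiples of a step, which put 132 to 2227 fragments at the midpoints of the members on an assumed common scale. All 10 members are described, and for each list and knockout the gene furthest from 0 is named. ams2, teb1, tif51 and tbp1 are named outside that rule, chosen after their values were seen. Members and lists were chosen with earlier results of these data known. Lists were matched by table or current symbol. The procedure was tested on simulated data, with changes set only in genes longer than the members and larger than any member showed. That test does not cover genes as short, or changes as small, as those of the members. Sequences are from the RefSeq genome and annotation ASM294v3 (Biopython 1.88). No paired analysis could be made. Alternatives covered pseudocounts of 0.1 and 10 FPKM, midpoints, 3 scalings and 2 filters.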

Additional observations from a re-analysis of the deposited data

How the results depend on the processing

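Of 168 alternative values of the medians and sums, 49 moved by more than 0.1 on the log2 scale and none changed a 2-fold call. The 168 include values that could not move, since the filters did not act on the members and the sums carried no pseudocount. With midpoints of the bounds, the sfp1 knockout had H2B at −0.061 and H4 at 0.096. With midpoints of the bounds, the ifh1 knockout had the median at −0.063, the sum of all 10 at −0.067, H2A at −0.069, H2A.Z at −0.20, H2B at −0.072, H3 at −0.14 and H4 at 0.20. With quantile normalization, the sfp1 knockout had the median at 0.015, the sum of all 10 at 0.019, H2A at −0.24, H2A.Z at −0.32, H2B at 0.18, H3 at −0.031 and H4 at 0.13. With quantile normalization, the ifh1 knockout had the median at 0.25, the sum of all 10 at 0.35, H2A at 0.027, H2A.Z at −0.20, H2B at 0.44, H3 at 0.39 and H4 at 0.40. With quantile normalization, the fhl1 knockout had the median at 0.12, the sum of all 10 at 0.17, H2B at 0.33, H3 at 0.10 and H4 at 0.26. Scaled to the sum outside ribosomal protein genes, the sfp1 knockout had the median at −0.084, the sum of all 10 at −0.026, H2A at −0.22, H2A.Z at −0.25, H2B at 0.043, H3 at −0.11 and H4 at 0.18. Scaled to the sum outside ribosomal protein genes, the ifh1 knockout had the median at 0.082, the sum of all 10 at 0.12, H2A at 0.12, H2A.Z at −0.00027, H2B at 0.028, H3 at 0.045 and H4 at 0.33. Scaled to the sum outside ribosomal protein genes, the fhl1 knockout had the median at 0.027, the sum of all 10 at 0.040, H2A at 0.059, H2A.Z at −0.045, H2B at 0.030, H3 at −0.094 and H4 at 0.27. The cause was not tested. Single histone genes differed in sign from unscaled FPKM in 5 of 30 values with midpoints and 13 with quantile normalization. The count was 10 with scaling outside ribosomal protein genes and 1 with median-of-ratios scaling. Other pseudocounts or filters could not change these signs, so their count of 0 was fixed in advance. The largest ratio of a histone gene under any setting was 0.63, so none of the 10 reached 2-fold. Over all genes, at least 2-fold lower and higher were 119 and 148 genes without sfp1, 135 and 76 without ifh1 and 43 and 123 without fhl1. A pseudocount of 10 FPKM gave 69 and 71 without sfp1, 25 higher without ifh1, and 24 and 51 without fhl1. Midpoints gave 80 higher without fhl1, and quantile normalization gave 64 lower without ifh1. Scaling outside ribosomal protein genes gave 57 lower without sfp1, and 55 lower and 153 higher without ifh1. A minimum mean of 10 FPKM gave 97, 46 and 77 higher in sfp1, ifh1 and fhl1 knockout cells. Of the calls on unscaled FPKM, the higher ones made up 55.4, 36.0 and 74.1% in the same order, and 78.6, 73.6 and 83.5% with scaling outside ribosomal protein genes. No paired analysis was possible because there was 1 sample per genotype, and for the same reason no replicate could be left out. The depth of each library is unknown.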

Other observations

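Outside the histone genes, the tandem AACCCTAACCCT stood in the 200 bases before the transcript start of 10 coding genes, a search made after the histone stretches were seen. They were the eIF5A gene tif51, the elongation factor 2 gene eft201, hsp90, the Hsp70 genes ssa1 and ssa2, the TATA-binding protein gene tbp1, the bromodomain gene bdf2, the Ran GTPase gene spi1, the squalene monooxygenase gene erg1 and SPAC27E2.11c. tif51 stood at 3340 FPKM without sfp1, 3747 without ifh1 and 3550 without fhl1, against 4675 in wild type. tbp1 lay on the other side, with 248, 236 and 214 FPKM in those knockouts, against 162 in wild type. None of the 10 was at least 2-fold from wild type, near the background of 0.903% to 3.11% of all genes in each direction.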
